A study of Mus musculus with 16 samples.

Results

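Mouse embryonic stem (ES) cells of a knockout genotype (KO) were compared 24 h after gamma irradiation with growing cells of the same genotype. The comparison took 5 of the 16 expression arrays of the study: 2 arrays of KO cells at 24 h (replicates 1 and 2) and 3 of growing KO cells (replicates 1 to 3). They were chosen by their labels alone, and no measured value entered that choice. Wild-type cells (WT; 3 growing arrays, 3 at 2 h and 2 at 24 h) and KO cells at 2 h (3 arrays) served for reference.

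KO cells are homozygous for an inactivated allele. Both genotypes were derived, as lines from single blastocysts, from a cross of heterozygous mice whose strain is labelled mix 129/C56Bl/6. The number of lines used is not stated in the labels. All groups shared the same culture, with the cytokine LIF and a layer of mitomycin-treated mouse embryonic fibroblasts (feeders). Before RNA extraction the cells were trypsinised and left for 1 h on gelatin, where feeders attach. A dose of 8 Gy is labelled at 2 h, while the labels of the 24 h arrays state no dose. No unirradiated culture of equal age is named, so effects of irradiation and of time in culture cannot be told apart. The labels number the samples as experiments and do not say whether cultures or lines differed between them. The spread on which the p-values rest may therefore be technical in part.

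Gamma rays break DNA, and the breaks activate the kinase ATM, which stabilises the transcription factor p53. In most cells p53 switches on genes that hold the cell cycle (Cdkn1a), genes of cell death (Bbc3, Pmaip1) and genes that switch p53 off again (Mdm2). ES cells are known for a short G1 phase, for a strong tendency to die after DNA damage, and for losing self-renewal genes after damage. The integrated stress response is a separate programme, in which the transcription factor ATF4 drives genes for amino acid synthesis, amino acid uptake and the charging of tRNAs.

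Levels below are the deposited intensities, in units scaled so that the trimmed mean of each array is 100. Differences are on the log2(intensity + 16) scale, 24 h minus growing, relative to the median probe set, whose own difference was 0.09. The error after ± is the standard error, and adjusted p-values are from limma over all 17736 probe sets tested. A gene "rose" or "fell" only with an adjusted p under 0.05, and because of the added 16 a difference understates the change of a dim gene.

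The quality measures of the groups were as follows. The median intensity was 26.7 to 30.4 on the growing arrays and 33.7 to 37.4 on the 24 h arrays. Signal ratios of the 3′ to the 5′ end lay between 1.02 and 1.14 for actin and between 0.775 and 0.882 for Gapdh. The signal of 18S ribosomal RNA was 30.9 to 64.7 on the growing arrays and 71.5 to 77.6 on the 24 h arrays, which did not overlap, and its part in the differences was not tested. Arrays of growing cells correlated with each other at 0.982 to 0.987, the 24 h arrays at 0.972, and arrays of different groups at 0.962 to 0.974. Probe sets too dim to be tested also differed, with a median of 2.93 in growing cells and 3.97 at 24 h. The arrays were hybridised in 4 runs, of which run 3 was the only one with both groups (replicate 2 of each). With the run as a block 1223 probe sets were called, 1002 of them among the 1428 called below.

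ES cell identity was checked by 8 markers, among them Pou5f1, Sox2 and Nanog. Their mean level was 9.67 to 9.85 on the growing arrays and 9.49 to 9.69 at 24 h on the log2 scale, so the groups overlapped only at their edges. Of the 8, Pou5f1 (-0.50, adjusted p = 0.0308) and Utf1 (-0.87, adjusted p = 0.0254) fell, and the others did not pass. Utf1, named after its values were seen, had 1195, 1065 and 1531 in growing cells and 542 and 959 at 24 h. Of 13 tested markers of fibroblasts the mean level was 5.36, 5.41 and 6.12 in growing cells and 6.26 and 5.85 at 24 h. Growing replicate 3 lay between the 24 h arrays, and the other growing arrays lay below them. Mmp2, a secreted protease, was the only one of the 13 to rise (0.95 ± 0.21, adjusted p = 0.00974), and that call was lost without KO 24 h replicate 1. The collagen genes Col1a1 (0.47, adjusted p = 0.692) and Col1a2 (0.70, adjusted p = 0.471) did not pass, and no fibroblast marker fell. A wider list of 33 genes that fibroblasts express had levels of 6.09, 6.25 and 6.62 in growing cells and 6.70 and 6.75 at 24 h, which did not overlap, with 2 genes risen (Mmp2 and Ccn1), 0 fallen and a median difference of 0.27. Of the defining markers of other cell types, Afp, Ttr, Gata3, Sox1 and Ptprc were too dim to be tested. Some dim ones were higher on both 24 h arrays than on any growing array, without passing. Krt7, a keratin gene of trophectoderm, had 3.79 to 14.0 in growing cells and 23.1 to 36.8 at 24 h (adjusted p = 0.218), Kdr, a receptor gene of mesoderm, 17.0 to 22.3 and 38.1 to 38.3 (adjusted p = 0.16), and Apoa1, of visceral endoderm, 0.677 to 5.09 and 10.4 to 12.2 (adjusted p = 0.133). Gata4, of primitive endoderm, had 23.3 to 29.8 and 34.5 to 39.2 (adjusted p = 0.669), and Hand1, of mesoderm, 18.5 to 31.9 and 33.4 to 44.3. The other primitive endoderm markers, Gata6, Sox7, Sox17, Pdgfra, Dab2, Foxa2 and Cubn, overlapped between the groups. So did Rbp4, Elf5, Mixl1, Pax6, Nes, Hba-a1 and Cd34. Cdx2, of trophectoderm, was lower on both 24 h arrays, with 9.1 to 12.1 and 1.04 to 7.71 (-0.48, adjusted p = 0.34). The share of all probe sets that were so separate was not counted. Probe sets too dim to be tested lay higher at 24 h as a whole (median 3.97 against 2.93). The part of that in these marker values was not tested. In RNA from a whole culture, fewer cells of a type and less RNA per cell cannot be told apart. The 42 p53 targets described below had mean levels of 7.02, 7.08 and 7.07 in growing cells against 7.91 and 7.81 at 24 h. The growing arrays lay close together in this level and below both 24 h arrays. The part of the fibroblast level in it was not tested.

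**Figure D1:**
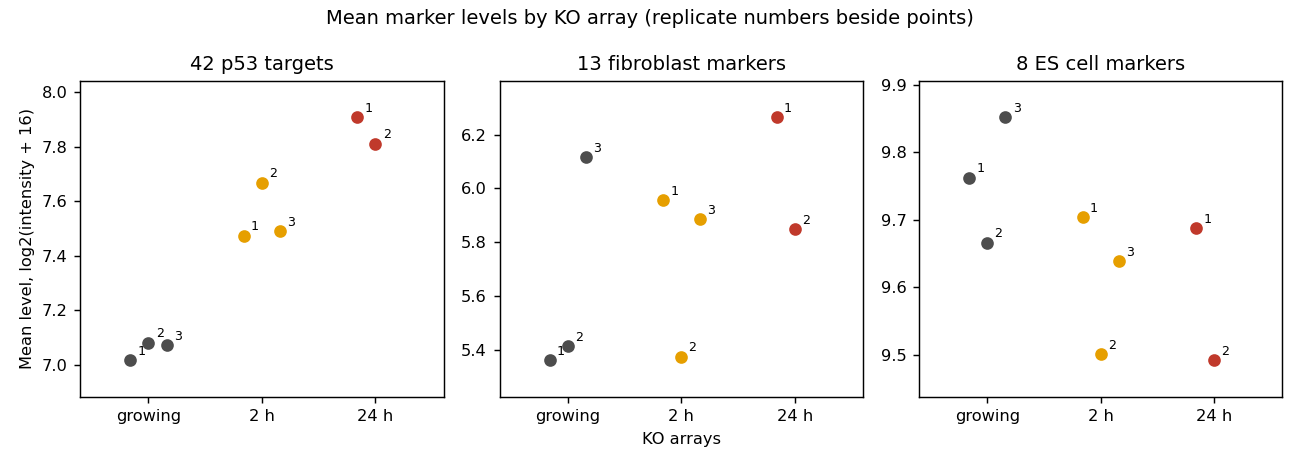
Mean level, as log2(intensity + 16), of 42 p53 targets, 13 fibroblast markers and 8 ES cell markers on each KO array, with the replicate number beside each point. The p53 targets are higher on both 24 h arrays (7.91 and 7.81) than on the growing arrays (7.02 to 7.08), while the fibroblast and ES cell markers overlap between growing cells and 24 h.

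The promoters of 4 genes are shown because the groups that moved most, p53 targets upward and amino acid genes downward, are known for a binding motif of their regulator. Mdm2 encodes the ubiquitin ligase of p53, and Ccng1 a cyclin that feeds back on p53. Pck2 encodes the mitochondrial enzyme that makes phosphoenolpyruvate, and Gars the ligase that charges glycine onto its tRNA. The first pair rose and the second pair fell. Each window runs from 250 bases before to 50 bases after the RefSeq start of the gene in GRCm38.p6 (Mdm2 chr10:117710709-117711008, minus strand; Ccng1 chr11:40755237-40755536, minus strand; Pck2 chr14:55540016-55540315, plus strand; Gars chr6:55037751-55038050, plus strand). Capitals mark the p53 half-site in the first pair, at 186 and 185 bases before the start, and the ATF4-type motif TGATGNAA, read on the other strand, in the second pair, at 103 and 30 bases before it.
Mdm2: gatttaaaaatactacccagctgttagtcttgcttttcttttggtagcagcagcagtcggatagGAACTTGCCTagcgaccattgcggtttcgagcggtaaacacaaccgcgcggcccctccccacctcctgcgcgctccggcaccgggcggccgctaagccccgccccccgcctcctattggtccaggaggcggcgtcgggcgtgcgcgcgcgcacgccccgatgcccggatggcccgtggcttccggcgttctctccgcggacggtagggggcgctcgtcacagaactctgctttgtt
Ccng1: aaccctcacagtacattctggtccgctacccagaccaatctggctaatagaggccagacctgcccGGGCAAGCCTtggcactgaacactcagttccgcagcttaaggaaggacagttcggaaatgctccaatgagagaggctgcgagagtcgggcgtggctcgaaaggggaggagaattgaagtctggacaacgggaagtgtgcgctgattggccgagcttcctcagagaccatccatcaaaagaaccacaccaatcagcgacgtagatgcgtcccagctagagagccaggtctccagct
Pck2: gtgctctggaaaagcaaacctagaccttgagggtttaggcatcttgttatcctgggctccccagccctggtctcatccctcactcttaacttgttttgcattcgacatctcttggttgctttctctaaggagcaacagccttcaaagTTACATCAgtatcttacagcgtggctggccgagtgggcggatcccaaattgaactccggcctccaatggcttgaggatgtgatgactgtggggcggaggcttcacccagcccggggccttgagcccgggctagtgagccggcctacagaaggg
Gars: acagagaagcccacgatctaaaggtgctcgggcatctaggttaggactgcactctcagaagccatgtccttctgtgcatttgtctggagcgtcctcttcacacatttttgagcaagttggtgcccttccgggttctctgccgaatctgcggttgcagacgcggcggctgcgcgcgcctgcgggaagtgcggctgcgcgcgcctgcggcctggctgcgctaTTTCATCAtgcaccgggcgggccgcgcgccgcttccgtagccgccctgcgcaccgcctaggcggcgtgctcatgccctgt

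All motifs were searched on both strands of these windows. The 4 genes were picked after their motifs and values had been seen, and a match is a description of the letters and not a binding site. Of the 27025 genes in the promoter table, 9.55% held the p53 half-site, and of 33 listed p53 targets with a window 12 did (36.4%). The motif TGATGNAA stood in 4.51% of all genes and in 8 of 21 genes of the integrated stress response list (38.1%). Among the genes that moved, the half-site stood in 5 of 14 p53 targets that rose (35.7%). TGATGNAA stood in 3 of 8 stress response genes that fell (37.5%). Both shares were near those of the whole lists. Common promoter elements were frequent in the p53 list too, with CCAAT in 66.7% (41.1% of all genes) and GGGCGG in 78.8% (38.2%). In the stress response list each of these elements stood in 61.9%. TATAAA stood in 9.09% of the p53 list (15.7% of all genes), TTTGAA in 6.06% (20.2%), TTTGGCGC in 3.03% (0.585%) and TTTCGCGC in 0% (0.374%). The E-box CACGTG stood in 9.09% (8.09% of all genes).

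The main question was which transcripts differed in KO cells 24 h after irradiation. The largest rise was that of Ddit4, which encodes an inhibitor of mTORC1 signalling and is a p53 target. It was followed by Dcxr, Tbc1d8 and Ccn1, which are outside the p53 list, and then by the p53 targets Plk2 and Btg2. The falls were led by Mep1b, the gene for the metalloprotease meprin beta, the kinase gene Pim2 and the fatty acid transporter gene Slc27a2. In all 556 probe sets were higher (3.13% of those tested) and 872 lower (4.92%), and 138 and 83 of these changed by at least 2-fold. By gene, 352 of 10252 rose (3.43%) and 542 fell (5.29%). At an unadjusted p under 0.05 there were 4157 probe sets, where 887 would be expected by chance.

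How the changes split between higher and lower depended on the scale. Of the calls 38.9% were higher in the fit described, 62.4% with no median subtracted, 44.9% with each array centred on its median, 51.0% after quantile normalization, 24.8% with 1 added before the logarithm and 49.6% with 64. Bright probe sets lay lower. When the tested probe sets were ranked by intensity and parted into 5 equal bins, the brightest bin (intensity 197 to 6440) had a median difference of -0.18, with 99 called higher and 513 lower. In the dimmest bin (0.999 to 16.4) it was 0.10, with 46 higher and 11 lower. No named gene that passed changed direction under any of these scales.

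The size of the response differed between the 24 h arrays. The median change of the called rises was 0.92 on replicate 1 and 0.75 on replicate 2, and that of the called falls -0.77 and -0.57. Leaving out KO 24 h replicate 1 left 269 probe sets, and leaving out growing replicate 1 or 3 left 608 or 751, against 1428 with all arrays. Without growing replicate 2 or KO 24 h replicate 2 there were 1140 and 1482. Where 1 array of the 24 h group remained, it was assumed to vary like the other groups. Below, a gene is said to hold in every fit when its call stood in all 20 alternative fits.

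The p53 targets were the group that rose most. Of all 10252 genes 3.43% rose, 5.29% fell and 5409 lay above 0. Of 42 tested p53 targets, 20 rose and 0 fell, with a median of 0.61 against 0.02 over all genes, and 38 lay above 0. All 20 were higher on both 24 h arrays than on any growing array, as the plot by array shows, and so separate were 1423 of all 1428 probe sets called. The list is made of textbook targets and was chosen with earlier results of these arrays known. Without KO 24 h replicate 1 the count was 13 and the median 0.57, without growing replicate 1 it was 16, and with the hybridisation run as a block it was 17. Within run 3, on 1 array of each group, the list's median was 0.62.

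**Figure D2:**
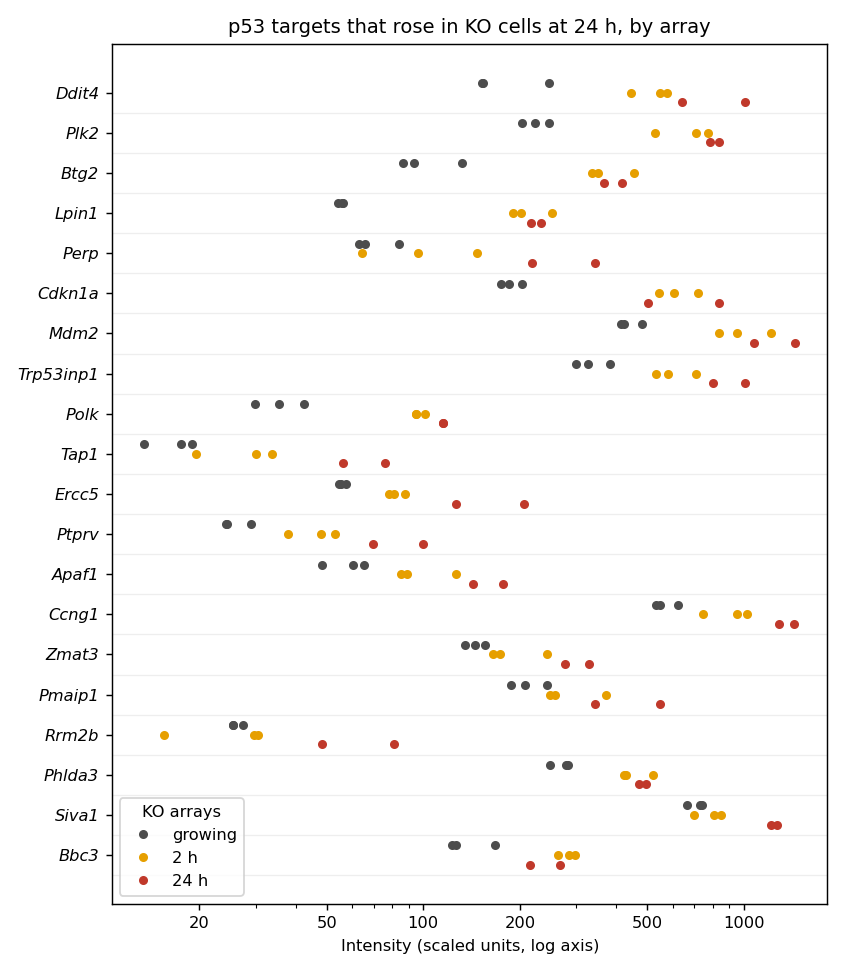
Intensity (log axis) of the 20 p53 targets that rose, on the 3 growing, 3 irradiated 2 h and 2 irradiated 24 h arrays of KO cells, 1 point per array, ordered by the 24 h difference. In every gene shown both 24 h points lie above all growing points. For Btg2, Lpin1, Cdkn1a and Bbc3 the 2 h points reach the 24 h level.

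The feedback genes of p53 included Mdm2, Ccng1 and Trp53inp1, a cofactor of p53 in cell death. Mdm2 had an intensity of 424, 413 and 482 on the growing arrays and 1076 and 1442 at 24 h. This was a rise of 1.38 ± 0.19 (2.61-fold on this scale, adjusted p = 0.000452), with no overlap between the groups. Ccng1 had 547, 622 and 531 in growing cells and 1428 and 1282 at 24 h (1.15 ± 0.15, adjusted p = 0.000338), and Trp53inp1 had 383, 299 and 325 against 1009 and 800.5 (1.30 ± 0.18, adjusted p = 0.000557). In both genes the higher 24 h array was replicate 1, whereas in Mdm2 it was replicate 2. All 3 genes held in every fit, and each of their further probe sets passed in the same direction. Ppm1d, the phosphatase that turns off ATM signalling (0.43, adjusted p = 0.108), and the ubiquitin ligase gene Rchy1 (0.24, adjusted p = 0.305) did not pass.

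Genes that arrest the cell cycle were higher as well. Cdkn1a, which encodes the kinase inhibitor p21, had 203, 174 and 185 in growing cells and 834 and 501.5 at 24 h (1.62 ± 0.25, adjusted p = 0.000889). Btg2, an antiproliferative gene, had 93.7, 86.4 and 132 against 415 and 366 (1.69 ± 0.19, adjusted p = 0.000127). Plk2, a kinase gene induced by p53, had 224, 203.5 and 247 against 837 and 784 (1.69 ± 0.17, adjusted p = 4.35e-05). The 24 h arrays were close to each other for Btg2 and Plk2 and apart for Cdkn1a, and no growing array came near them. Ptprv, a receptor phosphatase gene, went from 24.4, 24.2 and 29.0 to 99.7 and 69.6 (1.16 ± 0.17, adjusted p = 0.000784). These 4 of 10 arrest genes held in every fit, and the other 6 did not pass, among them Sfn (0.61, adjusted p = 0.456) and Gtse1 (0.40, adjusted p = 0.122).

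Of 11 death genes 6 rose. The largest rise was that of Perp, which encodes a desmosome protein of the death programme, from 63.2, 84.2 and 65.8 to 218 and 344 (1.65 ± 0.34, adjusted p = 0.00664). Apaf1, the core of the caspase-activating apoptosome, went from 65.4, 60.4 and 48.3 to 177 and 143 (1.16 ± 0.22, adjusted p = 0.00404). Pmaip1, which encodes the BH3-only protein Noxa, had 208, 243 and 188 against 547 and 343 (0.89 ± 0.23, adjusted p = 0.0224). In these genes too the groups did not overlap. Bbc3, which encodes the BH3-only protein Puma, changed less, from 123, 127 and 167.5 to 266.5 and 215 (0.64 ± 0.17, adjusted p = 0.0292), as did Phlda3, an inhibitor of AKT (0.72 ± 0.18, adjusted p = 0.0185), and Siva1 (0.70 ± 0.16, adjusted p = 0.00995). Without KO 24 h replicate 1 the calls of Apaf1, Pmaip1, Bbc3, Phlda3 and Siva1 were lost, and without replicate 2 those of Perp, Phlda3 and Siva1. Without growing replicate 1 those of Pmaip1, Bbc3 and Phlda3 were lost, that of Pmaip1 also without replicate 3 and that of Bbc3 also without replicate 2. Other regulators of apoptosis, 21 genes outside the p53 list, had a median of 0.04 with 0 risen and 0 fallen, and Mcl1 (0.19, adjusted p = 0.448) and Cycs (-0.20, adjusted p = 0.584) were the brightest.

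The p53 targets of metabolism and repair contributed 7 rises among 16 genes. Ddit4 had 153, 247 and 152.5 in growing cells and 1004 and 642 at 24 h, the largest rise of all genes named by the rule (1.98 ± 0.20, 3.93-fold, adjusted p = 6.65e-05). Its growing replicate 2 was the highest of its group and still far below both 24 h arrays. Lpin1, a phosphatidate phosphatase gene, went from 56.0, 56.3 and 54.1 to 233 and 217 (1.66 ± 0.19, adjusted p = 0.00013). The repair genes Polk, a translesion polymerase (1.26 ± 0.16, adjusted p = 0.000338), and Ercc5, an excision nuclease (1.22 ± 0.17, adjusted p = 0.000582), rose, as did Tap1, a peptide transporter of antigen presentation (1.23 ± 0.20, adjusted p = 0.00166). Ercc5, like the genes of this list whose calls are not followed through the other fits, was named after its values were seen. One further probe set of Polk gave 0.32 and did not pass. Zmat3, an RNA-binding protein gene, went from 145, 156 and 135 to 329 and 277 (0.89 ± 0.16, adjusted p = 0.00303), a call lost without KO 24 h replicate 1. The other 9 genes did not pass. The lowest was Gpx1, a glutathione peroxidase gene, with 825, 1133 and 1013 in growing cells and 535.5 and 829 at 24 h (-0.64 ± 0.27, adjusted p = 0.159). Sesn2, a sestrin gene, had 231, 252 and 257 in growing cells and 321.5 and 216 at 24 h (0.00 ± 0.15, adjusted p = 0.999; 95% interval -0.32 to 0.32). Its 24 h arrays lay on either side of the growing arrays. Trp53 itself and Fas had no tested probe set.

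Outside the p53 list, the 15 largest rises held genes of several kinds. Dcxr, a xylulose reductase gene, went from 49.9, 61.6 and 50.9 to 359 and 170 (1.83 ± 0.24, adjusted p = 0.000414). Tbc1d8, which encodes a regulator of Rab GTPases, had 20.7, 27.5 and 18.8 against 169 and 87.9 (1.77 ± 0.23, adjusted p = 0.000338), and Plod2, a collagen lysyl hydroxylase gene, 123, 99.0 and 116 against 481 and 313 (1.57 ± 0.17, adjusted p = 6.72e-05). In each the groups were apart and replicate 1 was the higher 24 h array. Ccn1, a matricellular growth factor gene that fibroblasts also express, had 73.8, 99.4 and 69.1 against 429.5 and 228 (1.69 ± 0.26, adjusted p = 0.000889). The part of the fibroblast level in this rise was not tested. The hormone gene Sct, dim in growing cells at 3.98, 6.87 and 9.56, had 59.8 and 53.3 at 24 h (1.59 ± 0.26, adjusted p = 0.00166). The surface receptor gene Pvr (1.52), the annexin gene Anxa8 (1.51), the tubulin gene Tubb6 (1.49) and the tight junction gene Cldn4 (1.46) completed the 15. Their calls, with adjusted p-values of 0.00329 to 0.00758, were lost without KO 24 h replicate 1.

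The largest falls were spread over functions. Mep1b had 50.7, 52.8 and 69.1 in growing cells and 7.85 and 2.54 at 24 h (-1.89 ± 0.35, adjusted p = 0.00314). Pim2, a survival kinase gene, went from 372, 393 and 303 to 69.7 and 134 (-1.80 ± 0.25, adjusted p = 0.000429). Shf, an adaptor gene, went from 31.7, 33.7 and 33.9 to 2.99 and 3.06, close to the floor of the array (-1.46 ± 0.21, adjusted p = 0.000576). In all 3 the growing arrays lay well above the 24 h arrays, and the calls held in every fit. The same held for Trh, a hormone precursor gene (-1.34 ± 0.17), Pfn1, which encodes profilin, an actin-binding protein (-1.32 ± 0.16), Mrpl12, a mitochondrial ribosome gene (-1.28 ± 0.14, adjusted p = 6.72e-05), and Stmn2, a microtubule regulator gene of neurons (-1.22 ± 0.18). Mrpl12 showed little spread, with 677, 599 and 601 in growing cells and 267 and 262 at 24 h. The calls of the fatty acid transporter gene Slc27a2 (-1.60), Zfp428 (-1.47), Myrf (-1.33), Spink1 (-1.28), Lefty1 (-1.27) and Ttc27 (-1.23) were lost without KO 24 h replicate 1. That of Spink1 was also lost without growing replicate 3, and that of Lefty1 without growing replicate 1 or 3 or without KO 24 h replicate 2. Lin28a and Nr0b1 are described with the pluripotency genes.

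Genes of the integrated stress response and of amino acid supply included many falls. Of 26 tested, 11 fell, 0 rose and 15 did not pass, with a median of -0.54 and 5 above 0. Over all genes 5.29% fell and 3.43% rose. Slc7a5, the leucine transporter gene, had 763, 814 and 696 in growing cells and 347.5 and 330 at 24 h (-1.21 ± 0.16, adjusted p = 0.000414). Mthfd2, of mitochondrial folate metabolism, had 517, 494 and 653 against 282 and 256 (-1.08 ± 0.17, adjusted p = 0.00121), and Shmt2, which makes glycine in mitochondria, 651, 459 and 685 against 273 and 303 (-1.09 ± 0.17, adjusted p = 0.00106). For all 3 the highest 24 h array lay below the lowest growing array. Slc7a3, a transporter gene for arginine and lysine, fell too (-1.12 ± 0.20, adjusted p = 0.00261), as did Gars (-0.55 ± 0.12, adjusted p = 0.0106), the brightest of the list. Named after their values were seen, the other members that fell were the serine synthesis genes Psat1 (-0.96) and Phgdh (-0.73), Pck2 (-1.01) and the tRNA ligase genes Sars (-0.90), Nars (-0.69) and Aars (-0.66). Atf4 (-0.58, adjusted p = 0.15), Asns, for asparagine synthetase (-0.21, adjusted p = 0.494), and Trib3 (-0.27, adjusted p = 0.535) did not pass. The count was 6 without KO 24 h replicate 1 or without growing replicate 1, and 7 without KO 24 h replicate 2, with medians from -0.55 to -0.44, and within run 3 the median was -0.39. The calls of Slc7a3 and Gars were lost without KO 24 h replicate 1, and that of Gars without growing replicate 1. The list's mean level in growing cells was 8.31 to 8.45 on the log2 scale. Bright probe sets as a whole lay lower, with a median of -0.18 in the brightest bin. The part of that in the falls of this list was not tested.

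Genes of the nucleolus and of ribosome assembly lay lower as a group. Of 37 tested, 10 fell and 0 rose, and all 37 lay below 0, with a median of -0.41. Among all 10252 genes 5.29% fell, 3.43% rose and 5409 lay above 0. Polr1b, a subunit of RNA polymerase I, had 314, 290 and 277 in growing cells and 114 and 198 at 24 h (-0.98 ± 0.20, adjusted p = 0.00625). Rrp9, of the processing complex for ribosomal RNA, had 312, 375 and 412 against 158 and 232 (-0.97 ± 0.17, adjusted p = 0.00285), and Fbl, which encodes fibrillarin, had 1369, 1203 and 1454 against 793 and 932 (-0.72 ± 0.15, adjusted p = 0.00655). Replicate 1 was the lower 24 h array in each. Npm1 (-0.14, adjusted p = 0.691) and Ncl (-0.35, adjusted p = 0.133), the brightest members, did not pass. Without KO 24 h replicate 1 the count was 0 and the median -0.19, and without KO 24 h replicate 2 it was 18 and -0.59. It was 5 without growing replicate 1, 4 without growing replicate 3, and 5 after quantile normalization (median -0.29) or with nothing subtracted (-0.32). Within run 3, which held replicate 2 of both groups, the median was -0.12. The calls of Polr1b, Rrp9 and Fbl were among those lost without KO 24 h replicate 1. Many of these genes are bright, and bright probe sets as a whole lay lower; the part of that in the result was not tested. The 33 tested genes for cytoplasmic ribosomal proteins did not share the direction, with a median of 0.14 and Rpl14 (-0.67 ± 0.17, adjusted p = 0.02) as the only call.

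**Figure D3:**
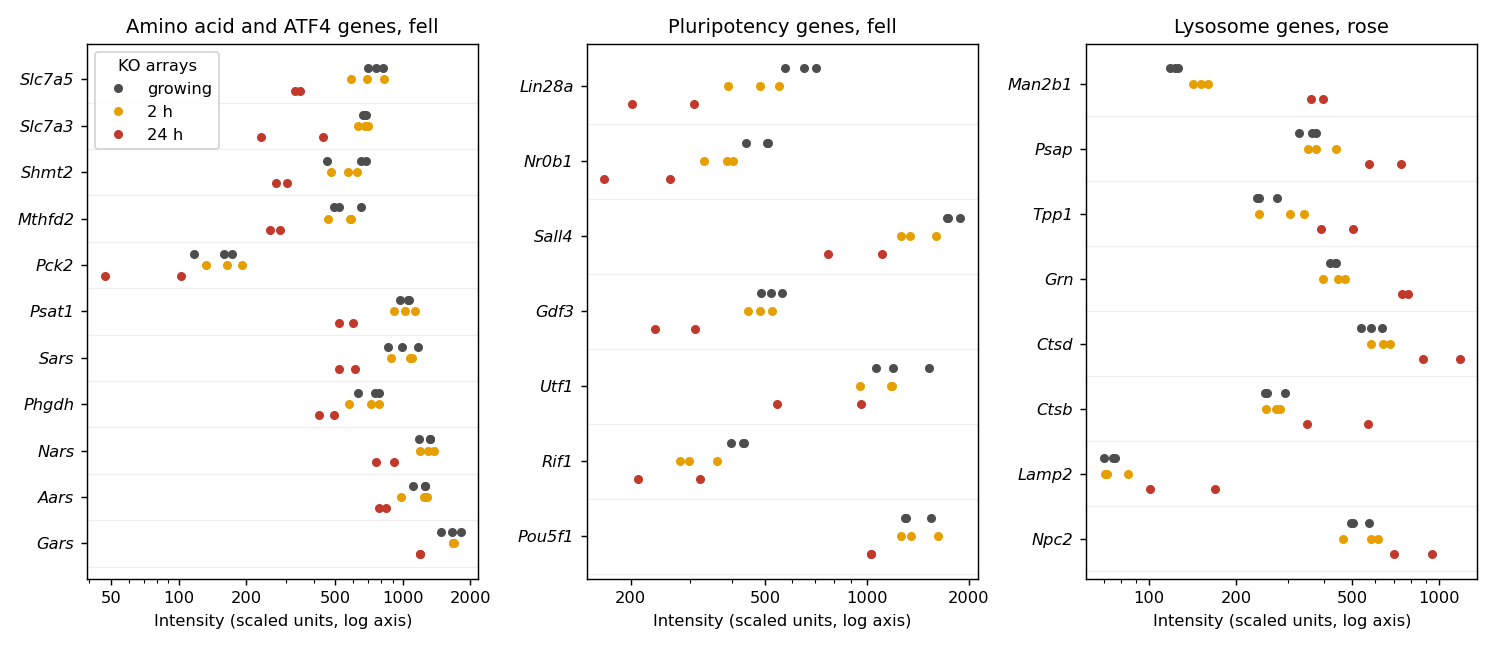
Intensity (log axis) of the members that passed in 3 lists, on the growing, 2 h and 24 h arrays of KO cells, 1 point per array: amino acid and ATF4 genes that fell, pluripotency genes that fell, and lysosome genes that rose. In the amino acid and lysosome panels the 2 h points lie among or beside the growing points, and the 24 h points lie apart from the growing points throughout.

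Pluripotency genes fell in part. Of 29 tested, 7 fell and 0 rose, with a median of -0.34, where 5.29% of all genes fell and 3.43% rose. Lin28a, which encodes an RNA-binding factor, had 651, 573 and 706 in growing cells and 202 and 308 at 24 h (-1.40 ± 0.20, adjusted p = 0.000576). Nr0b1, a nuclear receptor gene of the ES cell network, had 511, 438 and 505 against 167 and 261 (-1.24 ± 0.16, adjusted p = 0.000338), and Sall4, a zinc finger factor gene, 1728, 1740 and 1887 against 768 and 1105 (-1.03 ± 0.15, adjusted p = 0.00065). Each of these lay well below its growing range on both 24 h arrays, as did Gdf3, a TGF-beta family ligand gene (-0.99 ± 0.14, adjusted p = 0.00065), and these 4 calls held in every fit. A further probe set of Lin28a gave -0.66 and one of Sall4 -0.72, and neither passed. Pou5f1, which encodes OCT4, had 1303, 1292 and 1543 against 1029 and 1031 (-0.50 ± 0.14, adjusted p = 0.0308). That call was lost in 11 of 20 other fits, among them those without KO 24 h replicate 1 or 2 or growing replicate 1 or 3 and those with no median subtracted or after quantile normalization. Sox2 (-0.23, adjusted p = 0.443), Nanog (0.15, adjusted p = 0.679) and Zfp42 (-0.46, adjusted p = 0.246) did not pass. The Nanog arrays at 24 h, 871 and 500, lay above and below the growing arrays (512 to 600.5). The list count was 4 without KO 24 h replicate 1, without growing replicate 1 or after quantile normalization, and 5 without growing replicate 3. Within run 3 the median was -0.28. The list's mean level in growing cells was 9.13 to 9.26 on the log2 scale. Bright probe sets as a whole lay lower, with a median of -0.18 in the brightest bin. The part of that in these falls was not tested.

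Genes of epiblast priming and of differentiated lineages showed few calls by number, where 3.43% of all genes rose and 5.29% fell. The rises in visceral endoderm and the falls in the epiblast and neuroectoderm lists were larger shares than these. The medians were 0.47 for trophectoderm (14 of 16 above 0) and 0.29 for mesoderm (11 of 14). Primitive endoderm had 0.24 (22 of 28) and visceral endoderm 0.14 (9 of 11). Medians were -0.07 for parietal endoderm (5 of 11), -0.09 for neuroectoderm (4 of 13) and -0.24 for the epiblast list (2 of 12). That of trophectoderm was 0.14 with the hybridisation run as a block and 0.25 within run 3. The trophectoderm marker Cdx2 (-0.48, adjusted p = 0.34) was not in that list. Dim probe sets as a whole lay higher, with medians of 0.10 and 0.12 in the 2 dimmest bins. The part of that in the medians above 0 was not tested. Of 12 epiblast genes 2 fell, Lefty1 (-1.27 ± 0.34, adjusted p = 0.0263), an inhibitor of Nodal, and Dnmt3b (-1.19 ± 0.26, adjusted p = 0.00861), a DNA methyltransferase gene with 986, 1174 and 799 in growing cells and 317 and 623 at 24 h. Of 28 primitive endoderm genes only the laminin gene Lamb1 rose, a share near that of all genes. It went from 127, 130 and 116 to 232 and 251 (0.79 ± 0.15, adjusted p = 0.00491). The regulators Gata6 (0.24, adjusted p = 0.604), Gata4 (0.20, adjusted p = 0.669) and Sox17 (0.25, adjusted p = 0.631), the adaptor gene Dab2 (0.58, adjusted p = 0.182) and the receptor gene Cubn (0.50, adjusted p = 0.178) did not pass. Among 11 visceral endoderm genes Apoe (0.80), Eomes (0.69) and Cited1 (1.24) rose, with adjusted p-values of 0.0166 to 0.0242, and Cited1 was at 2.30 to 2.81 in growing cells. The placental cadherin gene Cdh3 (0.94 ± 0.21, adjusted p = 0.00891) was the single rise among 16 trophectoderm genes, and the receptor gene Fgfr1 (0.63 ± 0.19, adjusted p = 0.0435) among 14 mesoderm genes. Krt18 (1.44, adjusted p = 0.313) and Krt8 (1.07, adjusted p = 0.514), keratins of simple epithelia, had standard errors of 0.84 and 0.90 and did not pass. Of 13 neuroectoderm genes Stmn2 and Tubb3 (-0.97 ± 0.21, adjusted p = 0.00794) fell. Parietal endoderm (11 genes), 2-cell-like (5 genes) and interferon (20 genes) lists had 0 calls. Without KO 24 h replicate 1 the calls of Lefty1, Dnmt3b, Apoe, Eomes, Cited1, Cdh3, Fgfr1 and Tubb3 were lost. Lefty1, Eomes, Cited1 and Fgfr1 were also lost without KO 24 h replicate 2, Lefty1, Apoe, Eomes, Cited1 and Fgfr1 without growing replicate 1, Eomes and Fgfr1 without growing replicate 2, and Lefty1, Apoe, Cited1 and Fgfr1 without growing replicate 3. The level of the 13 fibroblast markers overlapped between the groups (6.26 and 5.85 at 24 h against 5.36 to 6.12 in growing cells). That of the wider list did not (6.70 and 6.75 against 6.09 to 6.62). The part of the fibroblast levels in the rises of these lists was not tested.

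Most cell cycle genes did not pass. Over all genes 3.43% rose and 5.29% fell, and the shares of falls in replication and repair and of rises in mitosis were larger. Of 43 genes of the G1/S transition and of replication 6 fell, among them the replication factor gene Rfc5 (-0.58 ± 0.13, adjusted p = 0.00979), the origin gene Orc2 (-0.53 ± 0.15, adjusted p = 0.0421) and Uhrf1, which recruits DNA methylation to new DNA (-0.60 ± 0.13, adjusted p = 0.00794). The retinoblastoma gene Rb1 rose, from 19.7, 14.5 and 20.9 to 114 and 56.5 (1.41 ± 0.25, adjusted p = 0.00226). Pcna (-0.27, adjusted p = 0.269) and Mcm7 (-0.01, adjusted p = 0.966), the brightest of the list, did not pass. Of 44 genes of mitosis 4 rose, the motility receptor gene Hmmr (0.85 ± 0.18, adjusted p = 0.00655), the securin gene Pttg1 (0.80 ± 0.23, adjusted p = 0.037) and the spindle genes Ckap2 (0.65 ± 0.18, adjusted p = 0.0316) and Tpx2 (0.62 ± 0.19, adjusted p = 0.0487). Cdc20 (0.14, adjusted p = 0.626) and Ube2c (-0.02, adjusted p = 0.96) did not pass, and the list's median was 0.04. DNA repair and checkpoint genes outside the p53 list had 5 falls among 39, such as Rad51ap1 (-0.67), Xrcc5, which encodes Ku80 (-0.64), and H2ax (-0.61), with adjusted p-values of 0.0309 to 0.0344, and a median of -0.17. With nothing subtracted the counts of falls were 2 for the G1/S list and 0 for the repair list, and without KO 24 h replicate 1 they were 0 and 1. Without growing replicate 1 the G1/S list had 1 fall and the repair list 0, and without growing replicate 2 or 3 they had 3 and 1. The repair list also had 1 fall without KO 24 h replicate 2. Within run 3 the medians were 0.04 for the G1/S list, 0.03 for mitosis and -0.11 for repair. Of 20 other fits the call of Orc2 was lost in 13, that of Rad51ap1 in 11, H2ax in 10 and Xrcc5 in 9. Rfc5 lost its call in 3 and Uhrf1 in 2. The calls of Rb1 and Hmmr were lost without KO 24 h replicate 1, and those of Pttg1, Ckap2 and Tpx2 when any 1 of the 5 arrays was left out.

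Some lysosome genes rose. Of 32 tested 8 rose, 0 fell and 24 did not pass, with a median of 0.28 and 27 above 0. Over all genes 3.43% rose and 5.29% fell. Man2b1, the lysosomal mannosidase gene, had 125.5, 122.5 and 118 in growing cells and 397 and 362.5 at 24 h (1.43 ± 0.14, adjusted p = 4.35e-05), a call held in every fit. Psap, the precursor of the saposins (0.76 ± 0.15, adjusted p = 0.0048), Tpp1, a peptidase gene (0.70 ± 0.17, adjusted p = 0.0154), and Grn, for progranulin (0.70 ± 0.18, adjusted p = 0.0245), rose as well. Lamp1, a membrane protein gene (-0.09, adjusted p = 0.78), did not pass. The count was 2 without KO 24 h replicate 1, 3 without growing replicate 1 or 3, 4 without growing replicate 2 and 12 after quantile normalization, with medians of 0.21 to 0.44, and within run 3 the median was 0.19. The calls of Psap and Grn were lost without KO 24 h replicate 1, and those of Tpp1 and Grn without KO 24 h replicate 2 or growing replicate 3. That of Grn was also lost without growing replicate 1 or 2.

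Further lists held smaller groups, to be read beside the 3.43% of all genes that rose and the 5.29% that fell. Immediate-early and dissociation genes had 7 rises and 1 fall among 24, led by the AP-1 gene Jun, with 82.0, 82.3 and 68.9 in growing cells and 248 and 197 at 24 h (1.25 ± 0.20, adjusted p = 0.00107), and by Klf6 (1.06 ± 0.27) and the antiproliferative gene Btg1 (0.99 ± 0.18). Myc fell (-0.75 ± 0.22, adjusted p = 0.0477), with 174, 189 and 225 against 78.4 and 174, so that replicate 2 lay at the growing level. Of 24 genes of hypoxia and glycolysis 4 rose, among them the glucose transporter gene Slc2a1, from 798, 680 and 708 to 1665 and 1394 (0.96 ± 0.18, adjusted p = 0.00409), and the oxidoreductase gene Ero1a (0.91 ± 0.20, adjusted p = 0.00884). The bright enzyme gene Ldha (-0.02, adjusted p = 0.961) did not pass. Of 19 sterol synthesis genes 3 fell, and Fdps, the farnesyl diphosphate synthase gene, held in every fit (-0.80 ± 0.12, adjusted p = 0.000799). Imprinted genes had 2 rises among 22, one of them Igf2r, the receptor gene that clears IGF2 (0.85 ± 0.16, adjusted p = 0.00329). Among 18 genes of FGF and ERK output 5 rose, led by Phlda1 (1.24 ± 0.32, adjusted p = 0.0215), and 1, Myc, fell. That list had 0 rises without growing replicate 1, 2 without growing replicate 2 or 3, 1 without either 24 h array, and 2 rises with 4 falls when 1 was added before the logarithm. The oxidative phosphorylation list had 3 falls among 48, a share near that of all genes, with 0 falls without growing replicate 1 or KO 24 h replicate 1, 1 without growing replicate 3, and 2 rises with 0 falls after quantile normalization. The DNA methylation list had 3 falls among 12, with 0 and 5 without KO 24 h replicate 1 and 2, 1 without growing replicate 1, and a median of -0.46 that was -0.09 within run 3. The histone list had 2 falls among 8, with 0 without growing replicate 1 or 3 and 1 without any other array. The 3 sterol falls became 1 without growing replicate 1 or 3 or without KO 24 h replicate 1. The 2 imprinted rises became 1 without growing replicate 1 or 3 or KO 24 h replicate 2 and 0 without KO 24 h replicate 1. Of the 10 genes of antigen presentation and the cell surface 2 rose and 1 fell. Of 32 cytoskeleton genes 1 rose and 1, Pfn1, fell, shares near those of all genes. Without KO 24 h replicate 1 the immediate-early list had 1 rise and the glycolysis list 0. Without growing replicate 1 they had 3 and 2, without growing replicate 2 they had 4 and 3, without growing replicate 3 they had 5 and 2, and without KO 24 h replicate 2 they had 7 and 7. The calls of Klf6, Btg1, Myc, Slc2a1, Ero1a, Igf2r and Phlda1 were lost without KO 24 h replicate 1. Of these, Klf6, Myc and Phlda1 also lost theirs without growing replicate 1 or 3, Myc without growing replicate 2 and Phlda1 without KO 24 h replicate 2. Jun, Fdps and Pfn1 held in every fit.

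**Figure D4:**
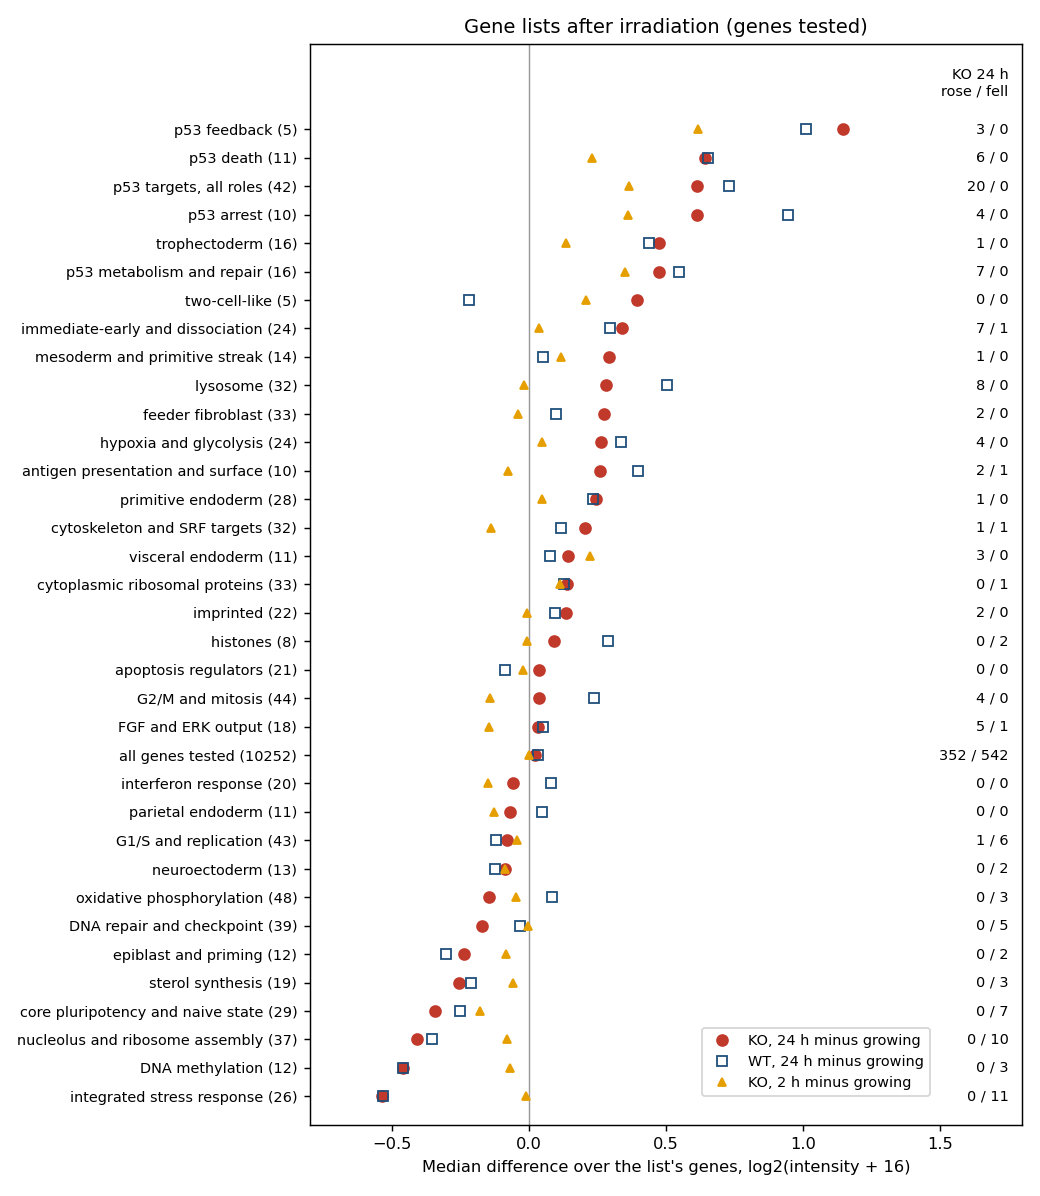
Median difference over the tested genes of each list (number of genes in brackets), on the log2(intensity + 16) scale: KO 24 h minus growing, WT 24 h minus growing and KO 2 h minus growing. The columns at the right count the genes that rose and fell in KO at 24 h. The p53 lists have 0.47 to 1.15 in KO at 24 h and the trophectoderm list 0.47, with the integrated stress response list at the bottom (-0.54), and all genes at 0.02.

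KO cells at 2 h shared the growing arrays with the comparison above, so their values are set side by side only. At 2 h 10 genes rose (0.0975% of 10252) and 0 fell (0%). Of these, 8 were listed p53 targets: Btg2 (1.69 ± 0.17), Lpin1 (1.64), Cdkn1a (1.61), Plk2 (1.46), Ddit4 (1.41), Mdm2 (1.10), Polk (1.09) and Bbc3 (0.91). The others were Fosl1, an AP-1 gene (1.11), and Nodal, a TGF-beta family ligand gene (0.77). The p53 list had a median of 0.36 at 2 h. Medians at 2 h were -0.01 for the integrated stress response list, with its 11 fallers between -0.16 and 0.07, and -0.02 for the lysosome list.

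The difference between 24 h and 2 h was tested directly in KO cells, on arrays of which the 24 h pair also served above. By gene 220 were higher at 24 h (2.15%) and 185 lower (1.8%). Of the 42 p53 targets 9 were higher at 24 h, 1 was lower and 32 did not pass. Among the last were Ddit4 (0.59, adjusted p = 0.114) and Mdm2 (0.30, adjusted p = 0.414). Btg2 (0.02 ± 0.19, adjusted p = 0.974), Lpin1 (0.05 ± 0.19) and Cdkn1a (0.04 ± 0.25) did not pass. Perp (1.32 ± 0.34, adjusted p = 0.0383), Rrm2b, a ribonucleotide reductase gene (0.93, adjusted p = 0.0176), Tap1 (0.88), Ercc5 (0.83), Ptprv (0.65), Siva1 (0.63), Zmat3 (0.59) and Ccng1 (0.55, adjusted p = 0.0445) were higher at 24 h than at 2 h. Gadd45a (0.86) was higher too. Sesn2 was the only one lower at 24 h (-0.69 ± 0.15, adjusted p = 0.0176), with 412, 438 and 432 at 2 h against 321.5 and 216. Its arrays at 2 h all lay above those at 24 h and those of growing cells.

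Of the 11 stress response genes that had fallen, 10 were also lower at 24 h than at 2 h, as were 1 of the 10 nucleolar genes that fell, and 5 of the 8 lysosome genes that rose were higher. These genes had been picked on the same 24 h arrays, so part of the agreement is built in. The same share among all genes that fell or rose was not counted. Outside these lists the largest differences were Bhlhe40, a repressor gene of the clock and of stress responses (1.89 ± 0.22, adjusted p = 0.000217), and Grina (1.66 ± 0.34, adjusted p = 0.0111). Bhlhe40 had 41.5, 38.2 and 31.0 at 2 h and 208 and 163 at 24 h, against 59.5, 70.0 and 35.9 in growing cells. Pvr (1.64), Ccn1 (1.60) and Dcxr (1.59) followed. Lower at 24 h were Mep1b (-1.71 ± 0.35), Zfp428 (-1.29), Pim2 (-1.27), Mrpl12 (-1.20 ± 0.14, adjusted p = 0.000217) and Rasgrp2, an exchange factor gene for Rap GTPases (-1.17). The number of probe sets called, 676, was 126 with replicate 3 of every group left out. It was 412 when the pair of arrays with high 18S signal, one of them KO 2 h replicate 2, was left out. Leaving out single arrays gave 48 to 838.

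WT cells went through the same states on other arrays. At 24 h 619 WT genes rose (6.04%) and 336 fell (3.28%). Of the 20 p53 targets that rose in KO, 18 also rose in WT. The exceptions were Bbc3 (0.53, adjusted p = 0.0678) and Rrm2b (0.40, adjusted p = 0.259). In WT 24 of the 42 p53 targets rose. The 6 that rose in WT and did not pass in KO were Gadd45a (1.09 in WT, 0.41 in KO), Aldh4a1 (0.74 and 0.36), Slc19a2 (0.68 and 0.40), Ei24 (0.65 and 0.13), Ppm1d (0.55 and 0.43) and Rchy1 (0.51 and 0.24). By probe set, 365 rose in both genotypes (65.6% of the KO rises and 39.7% of the WT rises) and 355 fell in both (40.7% and 59.6%), while 0 rose in KO and fell in WT and 1 fell in KO and rose in WT. Over the 17736 probe sets the Pearson correlation of the 2 sets of differences was 0.652, a description across probe sets on arrays that share hybridisation runs.

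**Figure D5:**
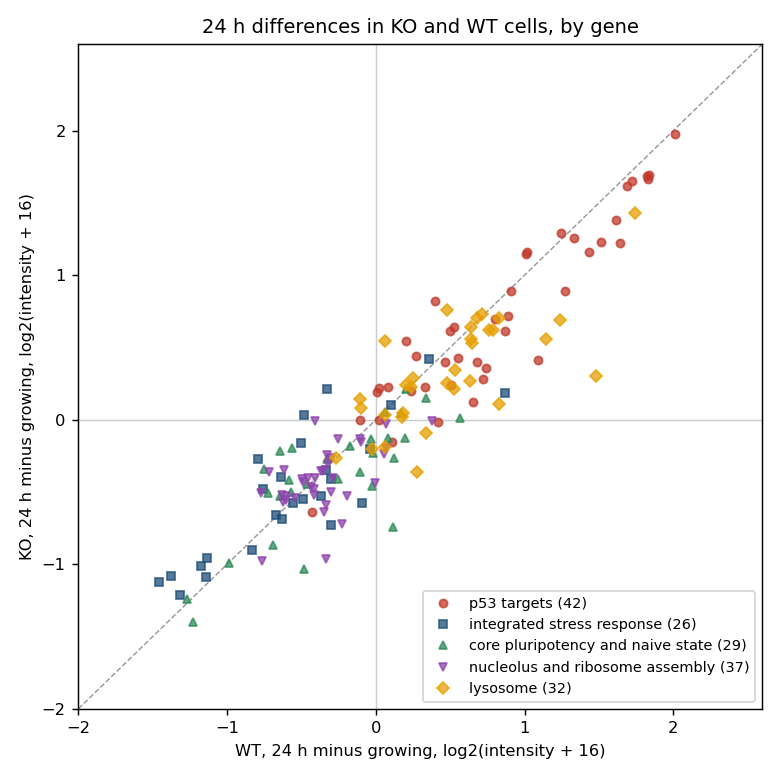
Difference at 24 h in KO cells (vertical) against WT cells (horizontal), log2(intensity + 16), 1 point per tested gene of 5 lists, with the number of genes in brackets and a dashed line of equal difference. The p53 targets lie at upper right along the line, from Ddit4 (1.98 in KO, 2.01 in WT) downward, and the stress response genes at lower left.

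The difference between the genotypes' responses, KO minus WT, was tested with the interaction of the same model. No probe set passed (0% of 17736, limma), the smallest adjusted p was 0.122, and 798 had an unadjusted p under 0.05, where 887 would be expected by chance. For Cdkn1a the difference of the responses was -0.05 with a 95% interval of -0.78 to 0.69, for Mdm2 -0.21 (-0.77 to 0.36), for Btg2 -0.11 (-0.68 to 0.46) and for Ddit4 -0.01 (-0.62 to 0.59). Over the 20 p53 targets that rose in KO the differences ranged from -0.40 to 0.45, and their intervals reached from -1.06 to 1.06. For Slc7a5 it was 0.13 (-0.35 to 0.62), for Lin28a -0.14 (-0.73 to 0.44) and for Man2b1 -0.28 (-0.69 to 0.13). Intervals of this width do not show that the genotypes responded alike. The gene with the smallest unadjusted p among those named was Ktn1, which encodes a kinesin-binding protein of the endoplasmic reticulum. It fell in KO (-0.52) and rose in WT (0.53), a difference of -1.03 (-1.45 to -0.60) with an adjusted p of 0.466, and its fall in KO lost its call in 8 of 20 other fits, among them those without any 1 growing array or without KO 24 h replicate 1. Krtap5-1 (1.35, 0.79 to 1.91) and Cdc26 (1.37, 0.78 to 1.96) differed the other way, with adjusted p-values of 0.466 and 0.531.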

How the data were processed

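RNA of 16 samples was hybridised, 1 sample per Affymetrix array with 1 colour, per the labels. The authors deposited linear intensities, and the mean of each array after trimming 2% at each end was 100. The summarisation software is not stated there. Instrument settings in the deposited report files, per the file headers, gave the 4 hybridisation runs.

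From 22690 probe sets, 64 controls were removed. Platform annotation paired 20380 with 1 symbol, 691 with several and 1555 with none, and names were given only to the first kind. In R 4.3.3, limma 3.58.1 fitted log2(intensity + 16) with 6 group means over all 16 arrays and an intensity trend (10 residual and 8.55 prior degrees of freedom). The median difference over 22626 probe sets was subtracted. A group mean above the 30th percentile (intensity 11.9) left 17736 probe sets to test, 2457 of them marked for possible cross-hybridisation. Benjamini-Hochberg adjustment of the p-values (both tails) used a threshold of 0.05. For 10252 genes the brightest tested probe set stood for the gene.

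Named were the 15 largest rises and 15 largest falls whose groups did not overlap, a fixed set of p53, pluripotency, endoderm and fibroblast genes, up to 4 of the largest called and the 2 brightest members of each list, and the leading genes of the other comparisons. A few further list members were named after their values were seen. Members and lists were chosen with earlier results of these data known. Alternatives were other added constants, filters, normalizations and variance settings, the run or the replicate as a block, and each array left out. The motifs TGATGNAA, CACGTG and the p53 half-site, and the fit without arrays of high 18S signal, were added after seeing the data. The model was tested on simulated data, in which most large changes and fewer of the small ones were recovered, and the share of false calls was above the threshold. Promoter windows and names came from RefSeq (GRCm38.p6). The number of arrays, 2 or 3 per group, limits the precision. The inactivated gene is not reported here.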

Additional observations from a re-analysis of the deposited data

How the results depend on the processing

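The count of 1428 probe sets in KO at 24 h was 446 without the arrays numbered replicate 3 (181 higher, 265 lower), and 269 to 1482 when single arrays were left out (121 to 610 higher, 148 to 872 lower). With nothing subtracted it was 888 higher and 535 lower, and 559 were lower after quantile normalization. For WT at 24 h, 1516 became 607 without replicate 3 and 278 to 1413 with single arrays left out. The KO minus WT count was 0 to 1 with single arrays left out. KO 24 h against 2 h, 676, became 126 without replicate 3, 412 without arrays of high 18S signal and 48 to 838 with single arrays left out. The run as a block gave 1223 (453 higher, 770 lower; 1002 shared with 1428). Same-numbered arrays share a replicate number and, for replicate 2, a hybridisation run. Their deviations correlated at 0.024 and 0.027. With 2 arrays at 24 h the deviations of that group mirror each other, so these values cannot show whether the samples are paired. A replicate block gave 1645 (655 higher, 990 lower, 1347 of them shared with 1428). Of 172 named genes 110 were called. Over 20 other fits 383 of their calls were lost, 27 were gained and 0 reversed, and 35 held in every fit. Dim probe sets, near the floor of the array, limit what can be said of silent lineage genes.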
